A study of Mus musculus with 6 samples.

Results

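The 26S proteasome is the large protease that degrades ubiquitin-tagged proteins, and its subunit transcripts were followed in the spleen of cadmium-treated mice. Members were all array probes whose platform annotation symbol began with Psma, Psmb, Psmc, Psmd or Psme followed by a digit, which gave 80 of the 45281 probes and 45 of the 19057 named genes on the array. Psmc3ip and Psme3ip1 met this rule by name but encode proteins that interact with subunits, and they were kept apart, which left 43 subunit genes with 76 probes. The core class held 14 genes (Psma1 to Psma7 and Psmb1 to Psmb7), the immunoproteasome class 5 (Psmb8, Psmb9, Psmb10, Psme1 and Psme2), and the cap class 20 (Psmc and Psmd). The remaining 4 were Psma8, Psmb11, Psme3 and Psme4, tissue-restricted core subunits and alternative activators.

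The animals were ICR mice, an outbred stock, 28 days old, which received 1 subcutaneous injection and were examined after 24 h. The 3 groups had received saline alone, cadmium chloride (CdCl2) at 5 µmol/kg or CdCl2 at 10 µmol/kg body weight, each in a volume of 200 µL. Cadmium is a toxic metal that binds protein thiols. Each group was represented by 2 Illumina bead arrays of total spleen RNA, and the labels name 7 to 8 animals for a group, without their sex. Whether the RNA of 1 animal or a pool went onto each array is not stated, so p-values reflect the scatter of these arrays alone, which may be technical.

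The core of the proteasome is a barrel of alpha (Psma) and beta (Psmb) subunits, and the proteolytic sites lie on Psmb5, Psmb6 and Psmb7. The 19S cap, made of the Psmc ATPases and the Psmd subunits, recognises ubiquitin chains, unfolds the substrate and feeds it into the barrel. In immune tissue such as spleen, and after interferon-gamma, Psmb8, Psmb9 and Psmb10 take the places of Psmb5, Psmb6 and Psmb7 in newly built particles, and Psme1 with Psme2 form the PA28 activator, which together favour peptides that fit MHC class I molecules. When proteasome activity falls, the transcription factor Nfe2l1 (Nrf1) raises subunit genes together through antioxidant response elements in their promoters, while interferon raises the immunoproteasome genes.

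The promoters of Psmb5 and Psmb6 and of their immunoproteasome counterparts Psmb8 and Psmb9 are shown because the transcripts of each pair are set against each other in the results. Each stretch runs from 250 bases before to 50 bases after the annotated start, 5′ to 3′ on the gene's own strand, from RefSeq with the build GRCm38.p6. Capitals mark matches to the antioxidant response element TGACNNNGC or the interferon-stimulated element (GAAA, any 2 bases, GAAA) on either strand, and Psmb8 and Psmb9 hold neither.
Psmb5: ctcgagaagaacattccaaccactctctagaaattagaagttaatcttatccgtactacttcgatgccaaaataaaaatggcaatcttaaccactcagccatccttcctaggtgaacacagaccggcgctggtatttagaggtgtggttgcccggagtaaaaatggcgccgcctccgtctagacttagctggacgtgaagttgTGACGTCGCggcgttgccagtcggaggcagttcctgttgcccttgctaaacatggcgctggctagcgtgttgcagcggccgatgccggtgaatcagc
Psmb8: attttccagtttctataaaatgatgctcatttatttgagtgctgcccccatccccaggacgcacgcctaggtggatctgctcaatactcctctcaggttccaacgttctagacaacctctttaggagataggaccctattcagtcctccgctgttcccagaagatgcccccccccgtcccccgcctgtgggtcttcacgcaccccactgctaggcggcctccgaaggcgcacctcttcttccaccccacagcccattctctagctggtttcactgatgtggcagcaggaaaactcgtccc
Psmb6: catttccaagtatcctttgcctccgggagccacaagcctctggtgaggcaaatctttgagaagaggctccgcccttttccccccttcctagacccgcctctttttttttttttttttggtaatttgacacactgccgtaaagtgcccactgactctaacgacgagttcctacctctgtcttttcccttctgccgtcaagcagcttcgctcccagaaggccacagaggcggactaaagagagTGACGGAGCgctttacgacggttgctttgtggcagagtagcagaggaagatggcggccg
Psmb9: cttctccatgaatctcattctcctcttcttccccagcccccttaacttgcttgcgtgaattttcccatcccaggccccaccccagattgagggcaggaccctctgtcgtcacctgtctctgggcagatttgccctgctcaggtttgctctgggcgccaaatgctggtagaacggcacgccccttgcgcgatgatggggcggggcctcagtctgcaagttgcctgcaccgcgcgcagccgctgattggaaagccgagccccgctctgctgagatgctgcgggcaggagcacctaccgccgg
These lie at chr14:54617946-54618245 on the minus strand (Psmb5), chr17:34197945-34198244 on the plus strand (Psmb8), chr11:70525107-70525406 on the plus strand (Psmb6) and chr17:34187281-34187580 on the minus strand (Psmb9).

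The antioxidant element begins 47 bases before the start in Psmb5 and 9 bases before it in Psmb6. The Psmb9 promoter shares 275 bases with that of Tap1, the neighbouring peptide transporter gene on the opposite strand, and their starts lie 226 bases apart. Of the 43 subunit genes, 36 had a promoter in the RefSeq table, with 39 promoters in all. TGACNNNGC was present in 6 of the 39 (15.4%) and in 12.4% of all 32851 promoters of the same length. The interferon-stimulated element was present in 4 of the 39 (10.3%) and in 3.44% of all. The 4 were promoters of Psmb3, Psmd4, Psmd9 and Psme1, so only 1 belonged to the immunoproteasome class. CCAAT, the NF-Y box, was present in 35.9% and 37.4%. The metal response element, searched as TGCACNC or TGCGCNC, was present in 14 of the 39 (35.9%) and in 25.7% of all. Both strands were searched for each motif, and these shares describe letters in a window and not bound sites.

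A probe was kept where its detection p-value was under 0.05 on at least 2 arrays, and its signal is given as log2 of the normalised intensity. Of the 43 subunit genes, 36 had such a probe: 11 of 14 core, all 5 immunoproteasome, 17 of 20 cap and 3 of the other 4. The 7 without one were Psma1, Psma3, Psma6, Psmc6, Psmd2, Psmd3 and Psmb11, the last of which is known as a thymus subunit. Of the 36, 35 were detected on all 6 arrays. The detection limit (lowest detected log2 signal) was 4.64 for saline array 1 and 4.72 to 4.76 for the rest, so Psma8, Psmd6 and Psmd9 were measured close to the limit. Psmb5 and Psmd5 lay above it but were also dim, at 5.42 and 5.52 on their lowest arrays. The brightest member probe reached an intensity of 4625 on a scale whose top was 26609.

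Markers of spleen cells were present on every array: between 4 and 5 of 5 measured B cell genes, between 5 and 6 of 6 T cell genes, and all 7 measured genes of red pulp macrophages were detected on each. Genes of pancreatic acinar cells, from the organ beside the spleen, divided the arrays in another way. Their mean log2 signal over 28 measured genes was 4.75 on saline array 1 and 12.30 on saline array 2, 11.89 and 10.93 on the arrays at 5 µmol/kg, and 4.94 and 11.63 on those at 10 µmol/kg. On saline array 1 only 7 of the 28 and on array 1 at 10 µmol/kg only 12 of the 28 were detected, while all 28 were detected on each of the other 4. The summed intensity of the list was 432 and 244842 in saline, 200078 and 114527 at 5 µmol/kg, and 870 and 173210 at 10 µmol/kg.

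At 5 µmol/kg all 11 measured core subunit transcripts were above saline, the immunoproteasome subunits diverged from one another, and the cap was mixed. No member passed the adjusted threshold of 0.05 in any comparison, and neither did any of the 13559 genes and probes tested with limma (0% called). The smallest adjusted p of a member was 0.525 at 5 µmol/kg against saline, 1 at 10 µmol/kg against saline and 0.981 between the doses. All differences below are therefore measured values and not calls. At an unadjusted p under 0.05, 6 of the 36 subunit genes were higher and 0 lower at 5 µmol/kg, where 4.58% of all features were higher and 4.69% lower (9.27% together). Without array 1 at 5 µmol/kg the count of 6 became 0, and over the other arrays left out in turn it reached at most 5. In 17 of the 36 both treated arrays lay above both saline arrays, and in 4 below, where this held for 21.8% and 25.2% of all features. Against saline at 10 µmol/kg, 0 of the 36 had an unadjusted p under 0.05 in either direction (1.63% of all features, 0.996% higher and 0.634% lower), and with an array left out at most 1 was higher and 2 lower.

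**Figure D1:**
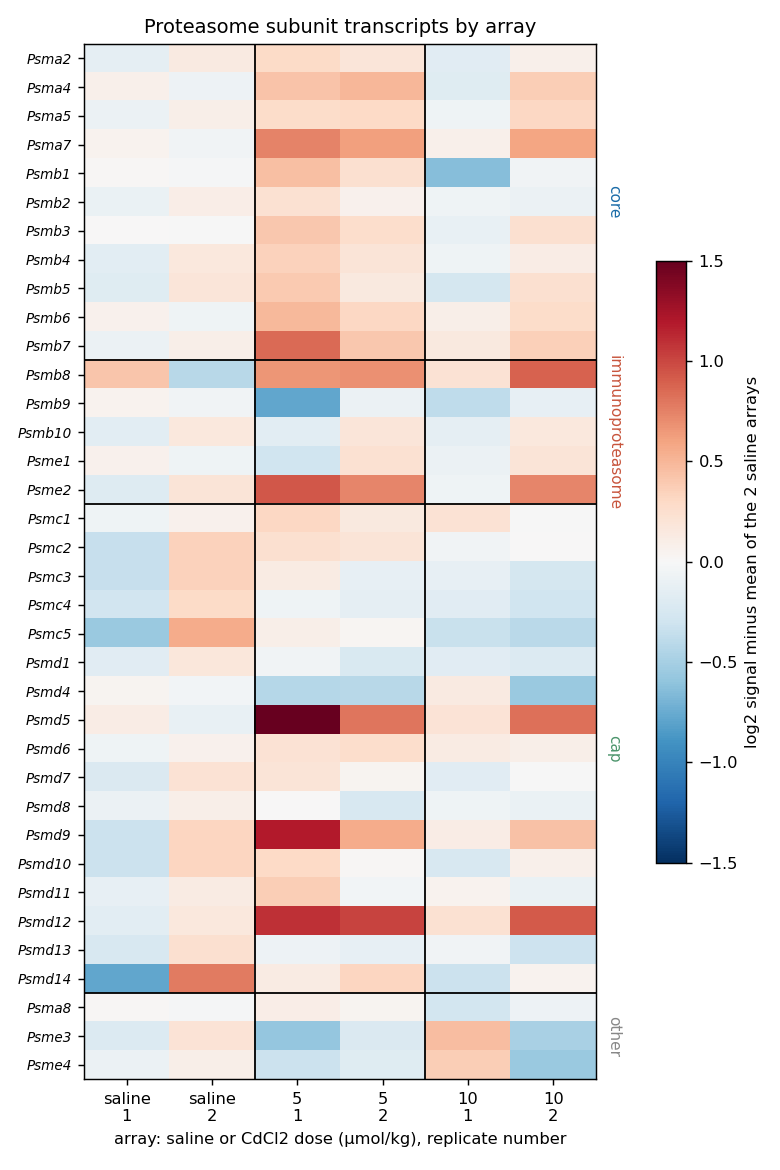
Log2 signal of the 36 measured subunit genes (rows) on each of the 6 arrays (columns), as the difference from the mean of the 2 saline arrays, with black lines between classes and groups. The core block is shaded red on both arrays at 5 µmol/kg, while saline arrays 1 and 2 differ in shade for most cap genes.

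The core was the class with the most even pattern at 5 µmol/kg. Its 11 log2 differences from saline ran from 0.15 (Psmb2) to 0.68 (Psma7) with a median of 0.33, where the median over all features was −0.013 and 48.7% of them were above 0. In 9 of the 11 both treated arrays lay above both saline arrays, which held for 21.8% of all features. The alpha and beta rings had similar medians, 0.38 over 4 Psma genes and 0.33 over 7 Psmb genes.

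Psma7, an alpha-ring subunit, was at 9.83 and 9.73 in saline, at 10.52 and 10.40 at 5 µmol/kg, and at 9.85 and 10.37 at 10 µmol/kg. Both arrays at 5 µmol/kg were above both saline arrays, and those at 10 µmol/kg were apart from each other. The difference at 5 µmol/kg was 0.68 ± 0.26 (SE, n = 2 arrays per group), or 1.60-fold with a 95% interval from 1.04 to 2.47 (limma adjusted p = 0.525), and Psma7 was among the 6 genes under the unadjusted threshold. Psmb7, which carries the trypsin-like site, was at 9.76 and 9.93 in saline, 10.69 and 10.25 at 5 µmol/kg, and 10.00 and 10.20 at 10 µmol/kg. No treated array overlapped the saline arrays at either dose. Its difference was 0.63 ± 0.26 at 5 µmol/kg (limma adjusted p = 0.525), also among the 6, and 0.25 ± 0.26 at 10 µmol/kg. The Psma7 difference at 10 µmol/kg was 0.33 ± 0.26, and it was 0.073 without array 2 and 0.59 without array 1 of that dose.

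Psmb6, with the caspase-like site, was at 9.95 and 9.83 in saline, 10.37 and 10.20 at 5 µmol/kg, and 9.97 and 10.16 at 10 µmol/kg. Psmb5, with the chymotrypsin-like site, was at 5.51 and 5.86 in saline, 6.08 and 5.84 at 5 µmol/kg, and 5.42 and 5.92 at 10 µmol/kg. The groups were separate for Psmb6 at both doses, and those of Psmb5 overlapped. The differences at 5 µmol/kg were 0.40 ± 0.23 for Psmb6 and 0.27 ± 0.28 for Psmb5. Psma4, another alpha-ring subunit, was at 10.35 and 10.20 in saline, 10.70 and 10.78 at 5 µmol/kg, and 10.09 and 10.64 at 10 µmol/kg. Psmb2, which gave the lowest core difference (0.15 ± 0.23), had overlapping groups, with 10.37 and 10.57 in saline against 10.70 and 10.53.

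At 10 µmol/kg the core was close to saline and below the lower dose. Its median difference from saline was 0.063, with 7 of 11 genes above 0 where 46.9% of all features were above 0, and 3 were separate and higher where 11% of all features were. Against 5 µmol/kg all 11 core genes were lower, with a median of −0.28 and a range from −0.69 (Psmb1) to −0.16 (Psma5), where the all-feature median was 0.005 and 50.8% of features were above 0. In 9 of the 11 both arrays at 10 µmol/kg lay below both at 5 µmol/kg, which held for 15.7% of all features. Without array 1 at 10 µmol/kg, which had little acinar signal, the median between the doses was −0.12 and 10 of the 11 were lower, with Psma5 at 0.025. The comparisons with saline share the saline arrays, and the comparison of the doses shares the treated arrays, so these counts are not separate evidence.

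Psmb1, a beta-ring subunit without a proteolytic site, was at 6.72 and 6.69 in saline, 7.15 and 6.94 at 5 µmol/kg, and 6.07 and 6.65 at 10 µmol/kg. It was the core gene on which array 1 at 10 µmol/kg stood lowest against saline. The difference between the doses was −0.69 ± 0.28 (limma adjusted p = 0.981). With array 1 at 10 µmol/kg left out it was −0.40, and with array 2 left out −0.98. Psmb1 was the only member under the unadjusted threshold between the doses, where 0.472% of all features were lower and 0.487% higher (0.959% together). Psma5 was at 11.42 and 11.44 at 5 µmol/kg against 11.08 and 11.45 at 10 µmol/kg, and the groups overlapped.

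The 2 arrays of a group did not behave alike in the core. Array 1 at 5 µmol/kg was the highest of the 6 for 9 of 11 core genes. Array 1 at 10 µmol/kg was the lowest for 5 and saline array 1 for 4, and these were also the arrays with little acinar signal. With each array left out in turn, the core median at 5 µmol/kg against saline ran from 0.26 to 0.40 and all 11 genes stayed above 0. Among the 4 arrays with bright acinar genes, saline array 2 is the only saline array, so their value repeats the one without saline array 1. It was 0.33 with 11 of 11 above 0, where the median of all features was −0.066 and 43.7% of them were above 0. For 10 µmol/kg against saline the core median ran from −0.063 (without array 2 at 10 µmol/kg) to 0.24 (without array 1), and 3 to 10 of the 11 genes were above 0.

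Marker genes of dividing cells had the same order of groups as the core. All 9 measured of 12 were above saline at 5 µmol/kg (median log2 difference 0.57) and all 9 were lower at 10 than at 5 µmol/kg (median −0.41). At 5 µmol/kg 4 of the 9 were higher without overlap, where 21.8% of all features were. Array 1 at 5 µmol/kg was the highest for 8 of the 9 and saline array 1 the lowest for 7. The summed intensity of the 9 was 7525 and 11950 in saline, 15461 and 11735 at 5 µmol/kg, and 11497 and 9067 at 10 µmol/kg, and 8 of the 9 were detected on saline array 1 and all 9 on the others. Their part in the core values was not tested. Markers of red pulp macrophages were also above saline, 6 of 7 at 5 µmol/kg (median 0.44) and 7 of 7 at 10 µmol/kg (median 0.91), and 1 and 0 of 5 B cell markers were above saline (medians −0.40 and −0.31). The summed intensity of the 7 macrophage genes was 8737 and 7963 in saline, 7895 and 10630 at 5 µmol/kg, and 11920 and 13734 at 10 µmol/kg. That of the 5 B cell genes was 6783 and 4204, then 3202 and 4652, then 4644 and 4577. Markers of T cells, neutrophils and erythroid cells lay on both sides of saline. At 5 µmol/kg 3 of 6, 5 of 8 and 2 of 6 were above it, in that order, and at 10 µmol/kg 4 of 6, 5 of 8 and 2 of 6. Their part in the subunit values was not tested either. In whole tissue, fewer cells of a type and less RNA per cell cannot be told apart.

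**Figure D2:**
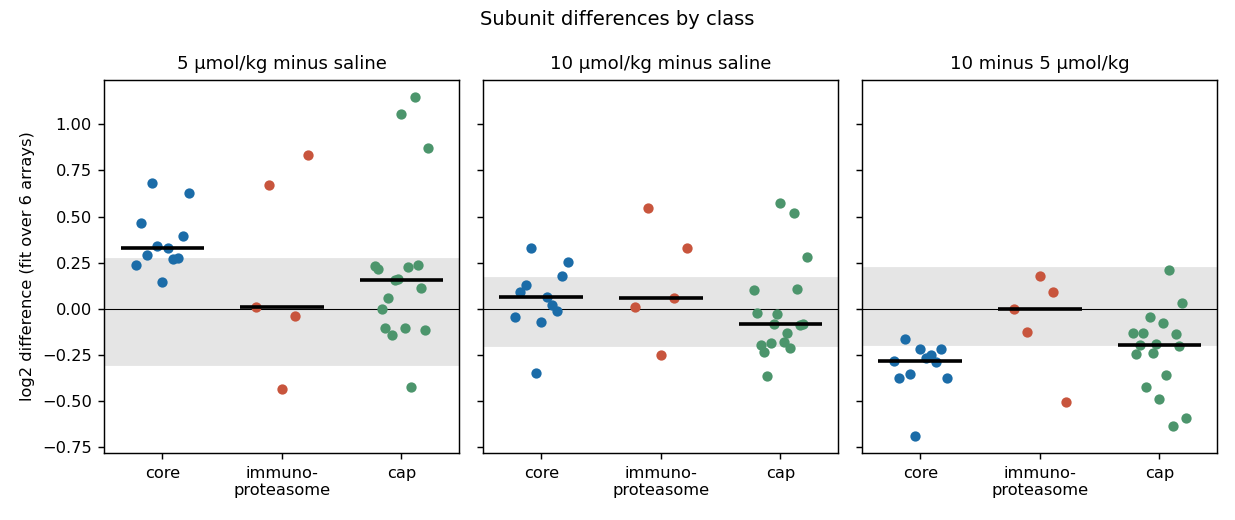
Log2 difference of each measured gene (points) by class in the 3 comparisons, with the class median as a black bar and the interquartile range of all 13559 features as a grey band. The 11 core points lie above 0 at 5 µmol/kg against saline and below 0 between the doses, while the immunoproteasome points lie on both sides in each panel.

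The 5 immunoproteasome genes did not share a direction at 5 µmol/kg. Psme2 and Psmb8 were higher, Psmb9 was lower and Psmb10 and Psme1 were near saline, so that the median was 0.012 and the range ran from −0.43 to 0.83. At 10 µmol/kg the median was 0.057, with 4 of 5 above 0, and between the doses it was −0.002. The 5 µmol/kg median ran from −0.16 (without array 2 at 5 µmol/kg) to 0.22 (without array 1).

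Psmb8, the counterpart of Psmb5, was at 10.03 and 9.20 in saline, 10.27 and 10.30 at 5 µmol/kg, and 9.83 and 10.49 at 10 µmol/kg. Saline array 2 was far below the other 5 arrays. The difference was 0.67 ± 0.36 at 5 µmol/kg (limma adjusted p = 0.547) and 0.55 ± 0.36 at 10 µmol/kg. Without saline array 2 these values were 0.26 and 0.13, and without saline array 1 they were 1.09 and 0.96. A second Psmb8 probe gave 0.26 ± 0.25 and 0.06 ± 0.25.

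Psmb9, the counterpart of Psmb6, was at 9.23 and 9.12 in saline, 8.40 and 9.09 at 5 µmol/kg, and 8.80 and 9.05 at 10 µmol/kg. All 4 treated arrays were below both saline arrays, and array 1 at 5 µmol/kg stood apart from the other 5. The differences were −0.43 ± 0.30 (95% interval −1.14 to 0.28) and −0.25 ± 0.30, and without array 1 at 5 µmol/kg the first was −0.083. Psmb10, the counterpart of Psmb7, was at 9.56 and 9.87 in saline, 9.56 and 9.90 at 5 µmol/kg, and 9.58 and 9.87 at 10 µmol/kg. In every group its array 1 was lower than its array 2 and the group means were nearly equal, with differences of 0.01 ± 0.26 (95% interval −0.62 to 0.64) at each dose.

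Of the PA28 activator, Psme2 was at 6.61 and 7.00 in saline, 7.74 and 7.53 at 5 µmol/kg, and 6.73 and 7.53 at 10 µmol/kg. Its partner Psme1 was at 10.77 and 10.63 in saline, 10.40 and 10.92 at 5 µmol/kg, and 10.61 and 10.90 at 10 µmol/kg. The Psme2 arrays at 5 µmol/kg lay above both saline arrays, and the Psme1 groups overlapped. Psme2 differed by 0.83 ± 0.33 at 5 µmol/kg, or 1.78-fold with a 95% interval from 1.03 to 3.08 (limma adjusted p = 0.525, among the 6 under the unadjusted threshold), and Psme1 by −0.04 ± 0.27. The Psme2 difference was 0.33 ± 0.33 at 10 µmol/kg and ran from −0.07 without array 2 to 0.73 without array 1 of that dose. RefSeq holds a near copy, Psme2b, and whether the probe separates them is not known here, so the Psme2 values are uncertain in that respect.

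Because each immunoproteasome subunit replaces 1 core subunit in the particle, the change of each was set against that of its counterpart as the difference of their log2 differences. For Psmb9 minus Psmb6 this was −0.83 at 5 µmol/kg, with the values over pairs of a treated and a saline array between −1.27 and −0.39. At 10 µmol/kg it was −0.43, with array pairs between −0.47 and −0.39. Treated and saline arrays were separate at both doses, with Psmb9 low against Psmb6. For Psmb10 minus Psmb7 the values were −0.62 (array pairs −1.08 to −0.15) and −0.24 (−0.36 to −0.13), again separate at both doses. For Psmb8 minus Psmb5, with the brighter Psmb8 probe, they were of the other sign, 0.40 and 0.56, and the arrays overlapped at both doses. The second Psmb8 probe differed from saline by 0.26 and 0.06, where Psmb5 differed by 0.27 and −0.01, so that sign depended on the probe. Without saline array 2 the values of Psmb8 minus Psmb5 became −0.19 and −0.032. Those of the other pairs with saline kept their sign with every array left out. No test was run on these values.

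**Figure D3:**
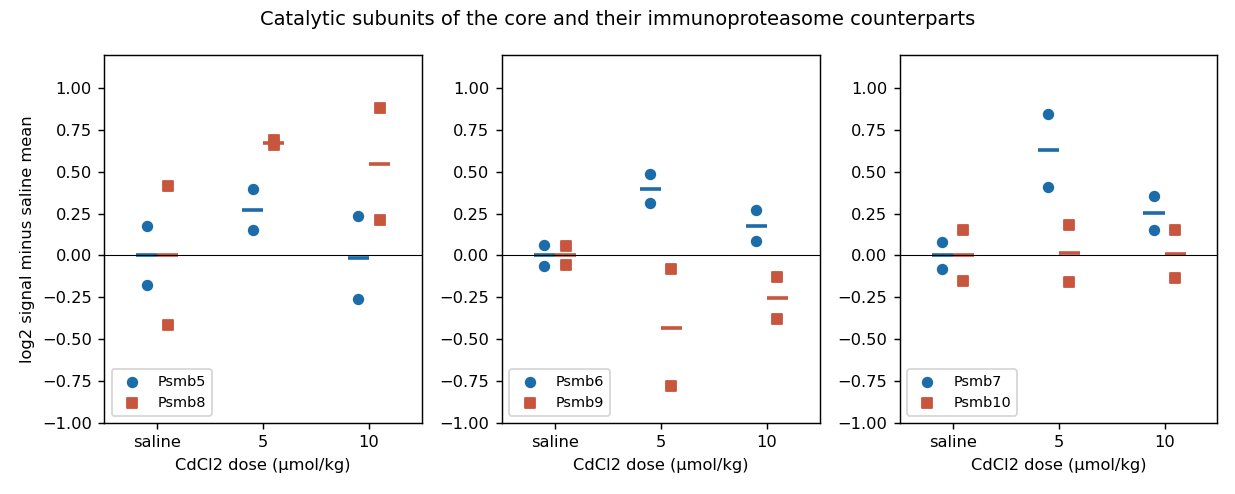
Log2 signal minus the saline mean (y axis) by dose (x axis) for each catalytic core subunit (blue circles) and its immunoproteasome counterpart (red squares), with 1 point per array and a bar for the group mean. Psmb9 lies below Psmb6 and Psmb10 below Psmb7 in both treated groups, while the Psmb8 saline arrays are 0.83 log2 units apart.

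Among genes that share interferon-gamma control with the immunoproteasome or act after it, members lay on both sides of saline at each dose, and none passed the adjusted threshold. Of 17 listed interferon-gamma response genes, 13 were measured. Their median at 5 µmol/kg was −0.02, and 6 of 13 were above 0. Irf9, a subunit of the ISGF3 factor, was at 8.33 and 7.99 in saline and 8.56 and 9.13 at 5 µmol/kg, a difference of 0.69 ± 0.28 (limma adjusted p = 0.525). The groups were separate, and it was the only listed gene under the unadjusted threshold. Irf1, the interferon-induced factor that acts on Psmb9, differed by −0.59 ± 0.42 with overlapping groups, and the GTPases Irgm1 and Irgm2 by −0.09 ± 0.25 and 0.42 ± 0.26. The median for the higher dose was −0.14 with 4 of 13 above 0. Between the doses it was −0.22, with 3 of 13 above 0 and 5 lower without overlap, where 50.8% of all features were above 0 and 15.7% were lower without overlap.

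Of 15 genes of MHC class I loading, 13 were measured, the 5 µmol/kg median being 0.18, and 8 of 13 above 0. The saline arrays were far apart on this list, with mean log2 signals of 8.43 on array 1 and 7.73 on array 2. Saline array 1 was the highest of all arrays for 7 of the 13 genes, and saline array 2 the lowest for 6. Tap2, a chain of the peptide transporter, was at 9.11 and 8.81 in saline and 8.03 and 8.10 at 5 µmol/kg, a difference of −0.89 ± 0.29 (limma adjusted p = 0.525). Tapbp, the tapasin that bridges transporter and class I chain, was at 6.52 and 5.88 in saline and 7.28 and 6.99 at 5 µmol/kg, a difference of 0.93 ± 0.37. The groups were separate for both, in opposite directions, and both were under the unadjusted threshold. Tap1, shown for the promoter it shares with Psmb9 and chosen after its values were seen, differed by −0.14 ± 0.48. The heavy chain H2-D1, the light chain B2m and the disulfide isomerase Pdia3 differed by 0.27 ± 0.40, 0.07 ± 0.31 and 0.48 ± 0.37, all with overlapping groups.

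The cap was the class that depended most on which saline array was used. Over its 17 measured genes the median was 0.16 for the lower dose (11 above 0), −0.084 for the higher dose (5 above 0) and −0.20 between the doses (2 above 0). Saline array 1 was the lowest of the 6 for 11 of 17 cap genes, and saline array 2 was the highest for 10. The median at 5 µmol/kg was −0.17 without saline array 1 and 0.33 without saline array 2. At 10 µmol/kg it was −0.30 and 0.16. The arrays with little acinar signal are array 1 at 10 µmol/kg and saline array 1, so 1 array stood against 1. Between them the median was 0.19 with all 17 above 0, where 48.5% of all features were.

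The 3 cap genes with the largest differences at 5 µmol/kg were Psmd5, Psmd12 and Psmd9. Psmd5, a chaperone that helps assemble the ATPase ring, was at 5.74 and 5.52 in saline, 7.13 and 6.43 at 5 µmol/kg, and 5.84 and 6.46 at 10 µmol/kg. Psmd12, a scaffold subunit of the lid, was at 7.64 and 7.95 in saline, 8.89 and 8.82 at 5 µmol/kg, and 8.02 and 8.71 at 10 µmol/kg. Psmd9, another chaperone of the ATPase ring, was at 4.79 and 5.44 in saline, 6.31 and 5.67 at 5 µmol/kg, and 5.23 and 5.56 at 10 µmol/kg. For all of these both arrays at 5 µmol/kg were above both saline arrays, and for Psmd5 and Psmd12 those at 10 µmol/kg were too.

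The differences at 5 µmol/kg were 1.15 ± 0.34 for Psmd5 (2.22-fold, 95% interval 1.26 to 3.90), 1.06 ± 0.30 for Psmd12 (2.08-fold, 1.26 to 3.43) and 0.87 ± 0.34 for Psmd9. Each was under the unadjusted threshold and had a limma adjusted p of 0.525. With each array left out they stayed between 0.80 and 1.50, 0.90 and 1.22, and 0.55 and 1.19, in that order. From saline to 10 µmol/kg Psmd12 differed by 0.57 ± 0.30 and Psmd5 by 0.52 ± 0.34. These values were 0.23 and 0.21 without array 2 at 10 µmol/kg, and 0.92 and 0.83 without array 1. A second Psmd12 probe, detected on 2 arrays, gave 0.33 ± 0.31 at 5 µmol/kg and −0.06 ± 0.31 at 10 µmol/kg, and a second Psmd9 probe gave 0.46 ± 0.25 and 0.05 ± 0.25.

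Psmd4, a ubiquitin receptor of the cap, was the lowest cap gene at 5 µmol/kg. It was at 12.00 and 11.92 in saline, 11.54 and 11.54 at 5 µmol/kg, and 12.10 and 11.40 at 10 µmol/kg. Both arrays at 5 µmol/kg were below both saline arrays (−0.42 ± 0.29), and the arrays at 10 µmol/kg lay on either side. The 5 measured ATPases (Psmc1 to Psmc5) had medians of 0.06 at 5 and −0.20 at 10 µmol/kg, with 3 and 1 of 5 above 0. Psmc5, the ATPase with the lowest difference at 10 µmol/kg, was at 8.43 and 9.54 in saline, 9.07 and 9.02 at 5 µmol/kg, and 8.65 and 8.59 at 10 µmol/kg. Its saline arrays enclosed all 4 treated arrays, and the difference at 10 µmol/kg was −0.37 ± 0.37, which became −0.92 without saline array 1 and 0.19 without saline array 2.

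Psmd14, the deubiquitinase of the lid, had the widest gap between saline arrays in the cap, 5.64 against 7.21, and its treated arrays lay between them, at 6.55 and 6.75 and at 6.10 and 6.48. The remaining cap subunits of the base and lid, Psmd1, Psmd6, Psmd7, Psmd8, Psmd11 and Psmd13, and the chaperone Psmd10 had differences within the range already given, with no unadjusted p under 0.05 for the brightest probe. A dimmer probe each of Psmd7 and Psmd10 was under that threshold at 5 µmol/kg. Of the alternative activators, Psme3 (PA28 gamma) was at 11.51 and 11.93 in saline, 11.14 and 11.50 at 5 µmol/kg, and 12.18 and 11.23 at 10 µmol/kg. Psme4 (PA200) was at 10.42 and 10.60, then 10.19 and 10.33, then 10.88 and 9.95. Both activators were low at 5 µmol/kg and had arrays at 10 µmol/kg on opposite sides of saline. Psma8, a testis form of the alpha ring, stayed between 4.42 and 4.79, near the detection limit. The interacting proteins Psmc3ip and Psme3ip1 differed from saline at 5 µmol/kg by 0.41 ± 0.27 and −0.06 ± 0.25.

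**Figure D4:**
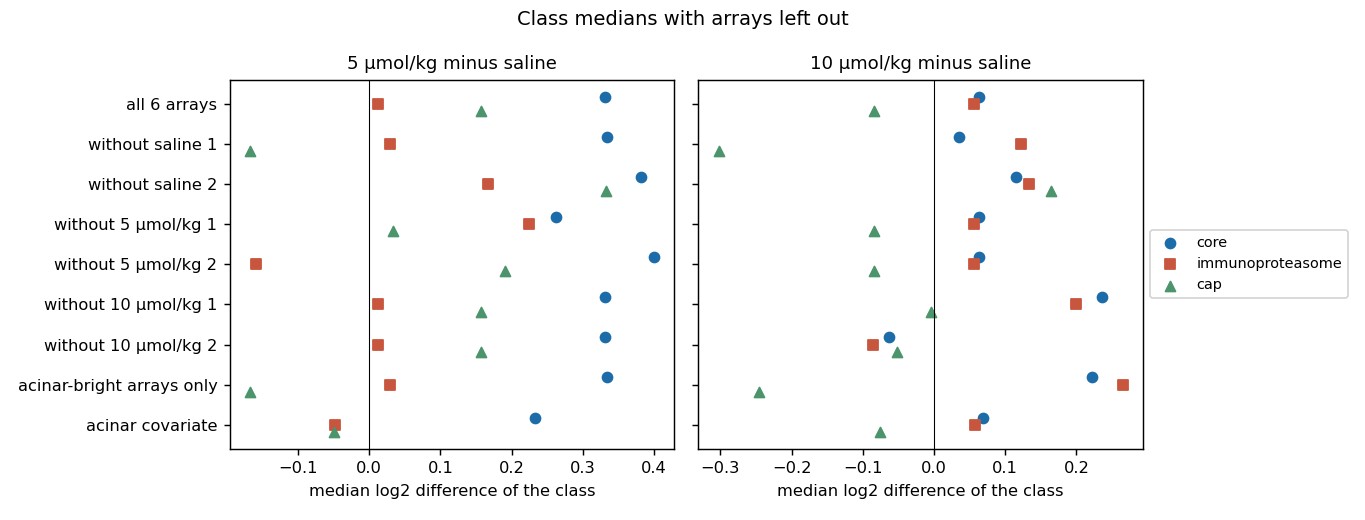
Median log2 difference of each class (x axis) against saline with all 6 arrays, with each array left out, with only the 4 arrays that hold bright acinar genes, and after fitting the acinar level as a covariate. The core median stays between 0.23 and 0.40 at 5 µmol/kg, while the cap median moves from −0.17 without saline array 1 to 0.33 without saline array 2.

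Dedicated chaperones of core assembly are encoded outside the symbol rule. Of the 6 listed, 4 were measured, and all 4 were above saline at 5 µmol/kg without overlap (median 0.54), where 48.7% of all features were above 0 and 21.8% were so without overlap. Psmg1, which pairs with Psmg2 to build the alpha ring, was at 6.31 and 7.22 in saline, 7.80 and 7.54 at 5 µmol/kg, and 6.69 and 7.37 at 10 µmol/kg. Psmg2 was at 8.81 and 9.02, then 9.73 and 9.29, then 9.15 and 9.04. The differences at 5 µmol/kg were 0.91 ± 0.38 for Psmg1, 0.59 ± 0.25 for Psmg2, 0.48 ± 0.26 for Psmg3 and 0.16 ± 0.23 for Pomp, the maturation factor of the beta ring. None had an unadjusted p under 0.05. All 4 were lower at 10 than at 5 µmol/kg, 3 of them without overlap, with a median of −0.34, where 50.8% of all features were above 0 and 15.7% were lower without overlap.

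Regulators and partners of the proteasome did not share that pattern. Of 7 listed transcriptional regulators 5 were measured, with a median of −0.13 at 5 µmol/kg and 1 of 5 above 0. Nfe2l1, the factor that drives subunit genes when proteasome activity falls, was at 9.02 and 9.35 in saline, 8.46 and 8.95 at 5 µmol/kg, and 9.02 and 8.90 at 10 µmol/kg. Both arrays at 5 µmol/kg were below both saline arrays (−0.47 ± 0.27), as were those of its small Maf partner Mafg (−0.69 ± 0.34). Keap1, the inhibitor of Nrf2, differed by −0.12 ± 0.23. Of 17 partners of the proteasome 8 were measured, with a median of −0.07 and 4 of 8 above 0. The cap subunit Sem1 differed by 0.32 ± 0.30, the shuttle Ubqln1 by −0.41 ± 0.24 and the ligase Ube3c by 0.01 ± 0.24.

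Of 11 genes of ubiquitin supply and shuttling 5 were measured, and they went in both directions. Sqstm1 (p62), the autophagy receptor for ubiquitinated protein and a known Nrf2 target, was at 9.39 and 9.32 in saline, 9.99 and 10.01 at 5 µmol/kg, and 9.92 and 10.16 at 10 µmol/kg. All 4 treated arrays were above both saline arrays, and the arrays of each group were close together. The differences were 0.65 ± 0.23 (limma adjusted p = 0.525) and 0.69 ± 0.23 (limma adjusted p = 1), both under the unadjusted threshold. Uba6, a ubiquitin-activating enzyme, was at 7.59 and 7.06 in saline, 6.28 and 5.78 at 5 µmol/kg, and 7.56 and 5.94 at 10 µmol/kg, with a difference of −1.30 ± 0.53 at the lower dose. The segregase Vcp differed by −0.44 ± 0.25 at 5 µmol/kg, and its cofactors Ufd1 and Nploc4 by 0.54 ± 0.22 and −0.04 ± 0.37. The Ufd1 and Vcp groups were separate in opposite directions, and Uba6 and Ufd1 were under the unadjusted threshold.

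Of the subunit genes, 15 were measured by several detected probes, which gives a view of the members that the choice of probe did not fix. All 17 detected core probes were above saline at 5 µmol/kg, where 50.7% of 18960 single probes were, and 13 of the 17 at 10 µmol/kg, where 48.9% were. The 17 include the 11 probes that stand for the core genes above, and only 4 core genes had several detected probes. Psmb7 had 4 probes, with differences of 1.30 ± 0.44, 0.91 ± 0.24, 0.63 ± 0.26 and 0.47 ± 0.38. Both Psma7 probes (0.92 and 0.68), both Psmb6 probes (0.59 and 0.40) and both Psmb2 probes (0.42 and 0.15) were above 0. All 17 were lower at 10 than at 5 µmol/kg, where 49.4% of single probes were above 0. Probes of a gene share its RNA and are not replicates.

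Probes of the cap and immunoproteasome were less uniform. Probes of 1 gene had opposite signs at 5 µmol/kg for Psmd1, Psmd7, Psmb10 and Psme1, 4 of the 15 genes. Psmd7, a lid scaffold subunit, gave 1.04 ± 0.35, −0.90 ± 0.69 and 0.12 ± 0.26. Psmd10, the chaperone also known as gankyrin, gave 1.05 ± 0.39, 0.01 ± 0.31 and 0.16 ± 0.31. The dimmer probe of Psmc5 gave 0.75 ± 0.26 where the brighter gave 0.06 ± 0.37, and the dimmer probe of Psme1 gave 0.42 ± 0.28 where the brighter gave −0.04 ± 0.28. For the higher dose signs were opposite for 8 of the 15 genes (Psmc2, Psmc5, Psmd7, Psmd10, Psmd12, Psmd14, Psmb2 and Psmb10), and between the doses for 2 (Psmd7 and Psme1).

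**Figure D5:**
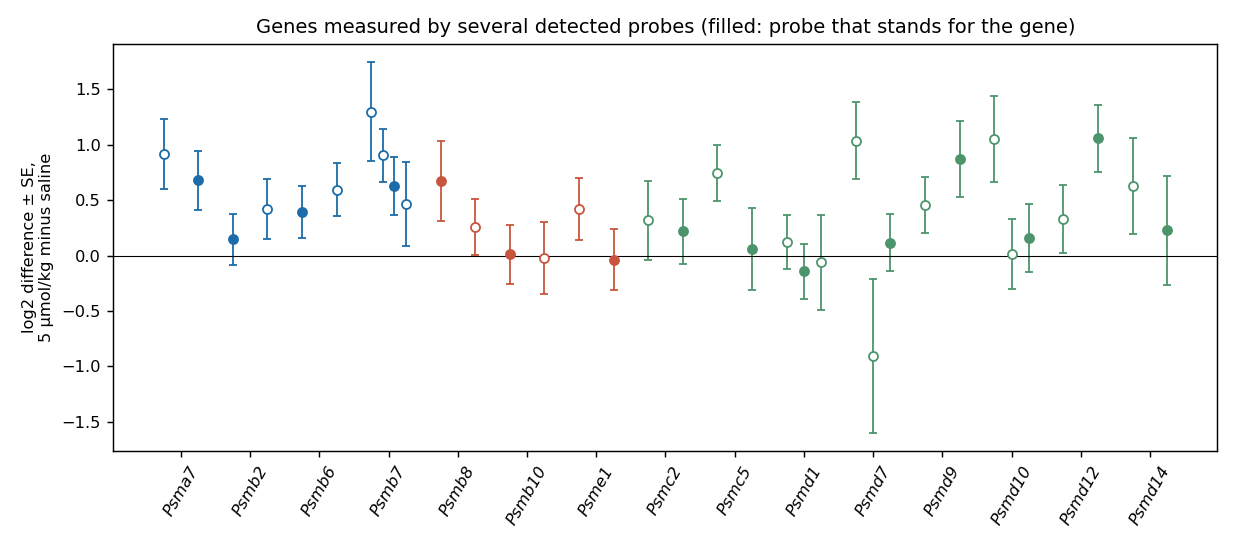
Log2 difference at 5 µmol/kg against saline (y axis, with SE) for each detected probe of the 15 subunit genes that have several (x axis), with the brightest probe of a gene filled. Blue core probes all lie above 0, and the 3 probes of Psmd7 run from −0.90 to 1.04.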

How the data were processed

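The authors deposited 1 table with the intensity of each probe (mean bead signal, linear) and a detection p-value per array. The deposited intensities went down to −20.15, and after sorting the arrays were within 0.243 of one another, so background subtraction and quantile normalization preceded deposit. The sources used here do not give the software. Extraction and biotin labelling were as in the labels' protocols.

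Here neqc of limma 3.58.1 in R 4.3.3 (offset 16, quantile step, log2) was applied again to these intensities. The offset understates changes of dim genes. Probes detected on at least 2 arrays were kept (18960), and the brightest stood for each gene, which gave 13559 features. One limma model with a mean per group was fitted to all 6 arrays (3 residual and 3.639 prior degrees of freedom), with Benjamini-Hochberg adjustment over all features. Detected probes per array numbered 18561 on saline array 1 and 16265 to 16901 elsewhere. Precision is limited by the number of arrays. Class medians and paired subunits had no test.

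All 80 member probes matched a RefSeq gene table (GRCm38.p6). The members and gene lists were chosen with earlier results of these data known. Named genes were the catalytic subunits, Psme1 and Psme2, the 5 smallest p per comparison, the extremes of each class, members whose probes differ in sign, and, per list, the 3 brightest and any with an unadjusted p under 0.05. Others were named after their values were seen. The fit was also run on simulated data with independent noise on each array. These lacked the acinar difference between arrays, so that run does not bear on the p-values given here.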

Additional observations from a re-analysis of the deposited data

How the results depend on the processing

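Of 192 class medians under another setting, 181 moved by less than the spread between arrays of a group, and of 192 values of the paired subunits 177 did. Both counts include settings that could not move a log2 difference: another threshold, a spread that follows intensity, a replicate block or only the groups compared. Leaving out an array of the group not compared could not move one either, so both counts overstate the stability. No member passed the adjusted threshold under any setting, except Psmb8 at 10 µmol/kg with only the acinar-bright arrays (1 member, log2 difference 1.30, limma adjusted p = 0.0485), where 1 array stood against 1 and 1 residual degree of freedom was left. The cause of that and of the changes below was not tested. On those arrays the core median was 0.22 at 10 µmol/kg against saline and −0.12 between the doses, the cap median at 5 µmol/kg was −0.17, and Psmb8 minus Psmb5 was 0.99 at 5 and 1.24 at 10 µmol/kg. Between the acinar-dim arrays, also 1 against 1, the cap median was 0.19 and Psmb8 minus Psmb5 was −0.12 at 10 µmol/kg. With the acinar level as a covariate the cap median at 5 µmol/kg was −0.049. Counted by single probes, 17 core probes were above 0 at 5 µmol/kg, 13 at 10 µmol/kg, and 17 were below 0 between the doses, because more probes than genes were counted.

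With each array left out in turn, the core median ran from −0.063 to 0.24 at 10 µmol/kg against saline (3 to 10 genes above 0) and from −0.44 to −0.12 between the doses. The cap median ran from −0.17 to 0.33 at 5 and from −0.30 to 0.16 at 10 µmol/kg. Psmb10 minus Psmb7 ran from −1.01 to −0.22 at 5 µmol/kg and from −0.020 to 0.76 between the doses. Psmb9 minus Psmb6 ran from −1.26 to −0.39 and from −0.037 to 0.83 in the same comparisons. Psmb8 minus Psmb5 ran from −0.19 to 0.99 at 5 and from −0.032 to 1.15 at 10 µmol/kg. An array left alone in its group was assumed to vary like the others.

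Members with an unadjusted p under 0.05 that were higher at 5 µmol/kg numbered 6 of 36 genes. There were 3 with intensities floored at 10, 3 with the acinar covariate and 13 of 56 counted by probe. The share of all features was not counted under these other settings, so whether such counts exceed it is not known. The replicate numbers were not shown to pair the arrays: array 1 minus array 2 correlated across features at −0.28 between saline and 5 µmol/kg, 0.58 between saline and 10 µmol/kg and −0.11 between the doses. With the replicate number as a block the count of such members was 3, with 0 members called. Each group holds 1 array of each number, so the block could not change a log2 difference and the core median stayed at 0.33. With the numbers exchanged at 5 µmol/kg the count of members was 6. That fit was chosen after seeing the data, as were the counts of core genes above and below 0.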
